A study of Mus musculus with 9 samples.

Results

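The red cell membrane rests on a protein skeleton, and 8 genes that build this membrane, bring iron into the cell or switch these genes on are described here across mouse tibiae: Slc4a1, Epb42, Ank1, Sptb, Add2, Rhag, Tfrc and Klf1. They were taken by their symbols, and all 8 were found among the 22183 genes of the deposited table, 1 row each. The 9 libraries, 3 to a group, hold polyadenylated RNA of tibia. Naive tibiae had no treatment, Ti tibiae had titanium particles, and Ti+I-OG tibiae had titanium particles and I-OG, a hydrogel loaded with irisin, a peptide released by muscle, that was injected into the bone. The hydrogel had acted for 5 weeks, and no time is stated for the other groups. Strain, age, sex and genotype are not in the labels. No mock procedure is named for naive bones, so an effect of particles and one of their delivery cannot be told apart. No group had the hydrogel without irisin or an injection alone. Effects of irisin, of the gel and of its injection therefore cannot be told apart either. Nothing says that libraries of 1 group are different mice, and p-values therefore measure the spread between these libraries, which may be technical.

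Red cells form in the marrow that fills the tibia. An early erythroid precursor divides and takes up iron through the transferrin receptor, the product of Tfrc. KLF1, a zinc finger transcription factor, binds CACCC-type sites and, with GATA1 and TAL1, directs globin, haem and membrane genes. Later precursors build the membrane: spectrin tetramers form a lattice under the lipid layer, ankyrin (Ank1) and protein 4.2 (Epb42) tie this lattice to the anion exchanger band 3 (Slc4a1), and adducin (Add2) caps the actin filaments at the lattice junctions. Inherited defects in several of these proteins cause spherocytic anaemias. Rhag encodes the Rh-associated glycoprotein of the ankyrin complex. Several members have uses outside the red cell line: dividing cells of many kinds carry Tfrc, kidney carries Slc4a1, brain carries Add2 and Ank1, and skeletal muscle makes short forms of Ank1.

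Sequence before the start of these genes is shown as a description, and no link between it and their levels was tested. RefSeq promoter sequence (build GRCm38.p6, matched by symbol) was at hand for 6 of the 8 genes, in 7 entries, and the 250 bases before each start were searched on both strands. The letters searched were AGATAA and TGATAA, which GATA factors bind, and CCNCNCCC, a CACCC-type motif that KLF proteins bind. In the stretch before Klf1, chr8:84901732-84901981 on the + strand, capitals mark TTATCA, which reads TGATAA on the other strand, 80 to 75 bases before the start.
Klf1: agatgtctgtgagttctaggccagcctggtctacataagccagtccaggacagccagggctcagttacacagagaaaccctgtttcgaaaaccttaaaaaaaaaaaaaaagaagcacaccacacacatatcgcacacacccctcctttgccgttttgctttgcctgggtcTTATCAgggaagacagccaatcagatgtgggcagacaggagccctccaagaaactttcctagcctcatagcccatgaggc

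The other entries, except the second of Tfrc, are shown as 30 bases around the first match, with every matched base of the window in capitals. The Rhag match is TGATAA and the Epb42 match AGATAA, both on the other strand. Those shown for Sptb, Add2 and Tfrc are CCNCNCCC, also on the other strand, where overlapping matches merge into a longer run. Sptb had a further CCNCNCCC match outside its window, on the strand shown, 96 to 89 bases before the start. The windows lie at chr17:40811106-40811135 (+) for Rhag, chr2:121037086-121037115 (-) for Epb42, chr12:76710649-76710678 (-) for Sptb, chr6:86028628-86028657 (+) for Add2 and chr16:32608730-32608759 (+) for the first of 2 Tfrc entries.
Rhag: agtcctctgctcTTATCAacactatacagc
Epb42: gtctctatttccTTATCTcgttcaaacaga
Sptb: cccgcaggctGGGGGCGGGGgcctcggccc
Add2: ctgctgcaGGGCGCGGGCGGGGacgctgca
Tfrc: gacacggcGGGGGAGGGGTGCGGtggagaa

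A GATA-type motif of these letters stood before 3 of the 6 genes, Klf1, Rhag and Epb42, and before 16.6% of all 32851 promoter entries. CCNCNCCC stood before the other 3, Sptb, Add2 and Tfrc, against 45.9% of all entries. None of the 7 entries held both kinds, which 4.52% of all entries did. These are matches of letters in a window and say nothing of binding. The 3 stretches with the GATA-type letters were 39.2% (Rhag), 43.2% (Epb42) and 49.2% (Klf1) G or C, below the median of 52.4% over all entries, and the other 4 entries were 53.2% to 68.0% G or C.

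Total counts per library ran from 16256081 to 24766502, and each of the 8 genes was measured on at least 1892 counts in every library. How counting error compared with the spread between libraries was not computed. All 8 passed the filter on low counts, as did 14211 genes in all. Bone cell markers were present in every library (10 of 10 genes tested, summed FPKM 930 to 2397, where FPKM is a fragment count scaled to transcript length and library size). Of 8 kidney and neural markers 6 were too low to test. Among these, Syt1 had no count in any library, and Umod, Snap25, Nphs1 and Aqp2 had at most 1, 2, 3 and 16. The 2 markers that were tested passed in no comparison, with log2 fold changes of 0.43 and 0.47 in Ti+I-OG against Ti. The summed FPKM of the 8 was 3.33 to 6.28 per library. Naive replicate 2 stood apart from the other naive libraries in the 8 genes, as given below. Naive replicate 3 was the lowest library in globin, where the 4 adult globin genes took 2.95% of counts against 6.03% and 9.47% in the other naive libraries.

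Per length, the levels spanned about an order of magnitude. Slc4a1 was at a mean of 397 FPKM over the 9 libraries, Tfrc at 171, Klf1 at 96.0 and Rhag at 66.4 FPKM. Epb42 followed at 47.3, Ank1 at 38.3, Add2 at 33.3 and Sptb at 32.99 FPKM. Slc4a1 was above Tfrc, Tfrc above Klf1 and Rhag above Epb42 in 9 of 9 libraries. Klf1 was above Rhag and Epb42 above Ank1 in 8 of 9, and Ank1 was above Add2 in 7 of 9. Add2 and Sptb did not differ beyond their spread, with Add2 higher in 4 of 9 libraries. Slc4a1, which encodes the most abundant protein of the red cell membrane, was also the highest RNA of the set, and the mean of the transcription factor gene Klf1 was above those of Rhag and the 4 skeleton genes Epb42, Ank1, Add2 and Sptb.

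**Figure D1:**
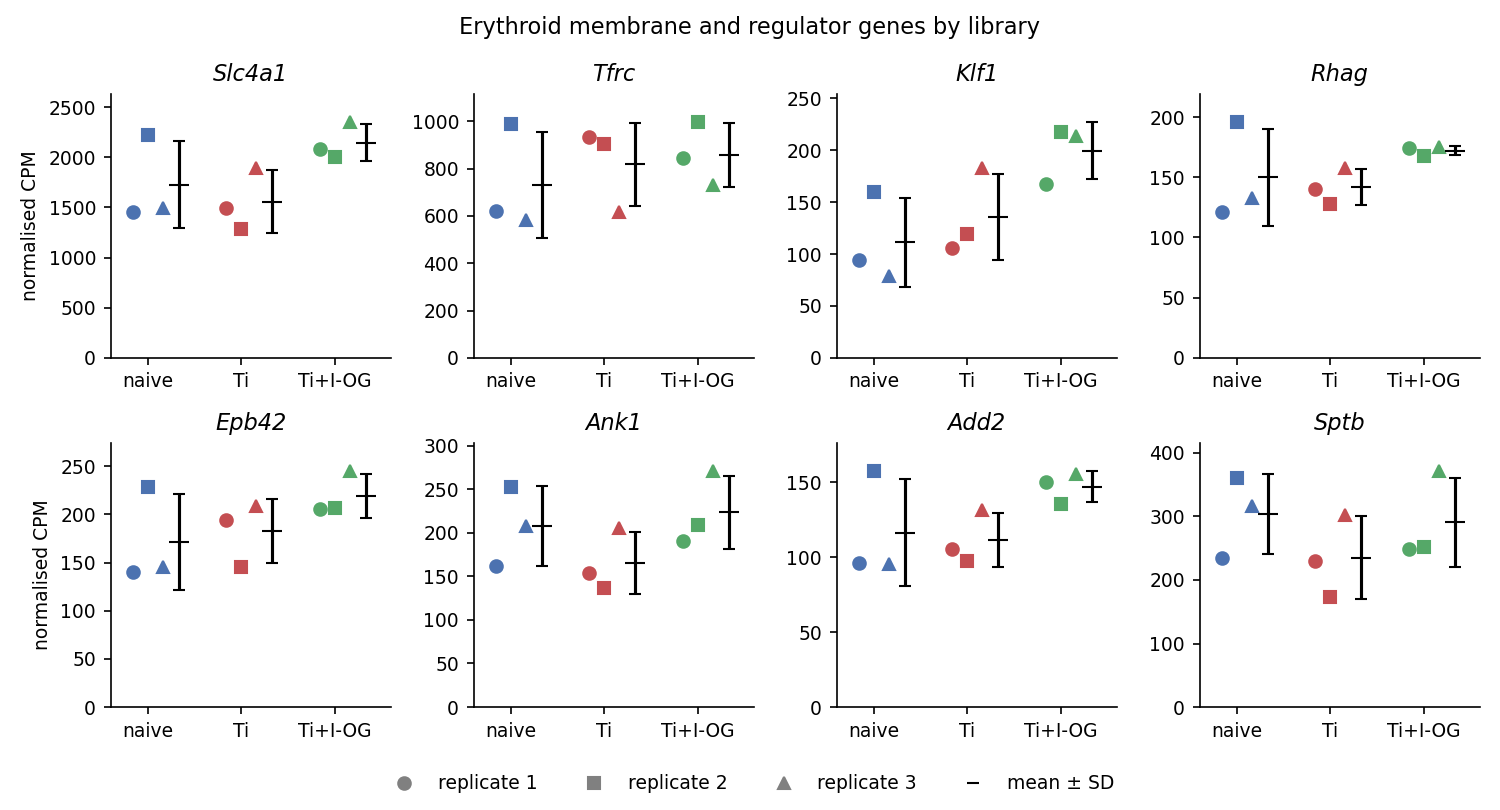
Normalised CPM (counts scaled to the effective library size, linear axis from 0) of the 8 genes in each of 9 libraries, by group, ordered by mean FPKM; symbols give the replicate and black bars the mean and SD of 3 libraries. Naive replicate 2 (square) is the highest naive library in all 8 panels, the groups overlap in most panels, and in Klf1 the 3 Ti+I-OG libraries (168 to 218 CPM) lie above the 3 naive ones (79.3 to 160.0 CPM).

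None of the 8 genes passed the test in any of the 3 comparisons. With edgeR's quasi-likelihood test over all 14211 genes, adjusted p-values of the 8 were 0.321 to 0.869 for Ti against naive, 0.630 to 0.950 for Ti+I-OG against Ti and 0.0663 to 0.878 for Ti+I-OG against naive. In these comparisons 6.43% (4.05% higher and 2.39% lower), 0.0422% (all higher) and 8.26% (3.84% higher and 4.43% lower) of all genes passed. In the test for any difference between the 3 groups 0 of 8 passed, against 5.77% of all genes; Klf1 had an adjusted p of 0.119 and the others 0.272 to 0.719. At an unadjusted p under 0.05 there were 0 of 8, 1 of 8 (Slc4a1) and 1 of 8 (Klf1), against 26.9%, 7.84% and 29.8% of all genes. DESeq2 called 0, 0 and 1 (Klf1), while 0 were called in each by limma-voom and by limma-trend on log2 FPKM. Of all genes, DESeq2 called 13.1%, 0.113% and 17.2%. Fold changes were positive in 3 of 8 genes for Ti against naive (50.7% of all genes), 8 of 8 for Ti+I-OG against Ti (49.6%) and 7 of 8 for Ti+I-OG against naive (52.7%), with medians of −0.07, 0.35 and 0.27. The comparisons share libraries, so these counts are not separate. Libraries of the groups did not overlap in 0 of 8, 3 of 8 and 1 of 8 genes, all higher in Ti+I-OG. Of all genes, 14.3%, 7.75% and 18.7% were higher without overlap, and 12.9%, 6.71% and 16.9% were lower without overlap. The shares in either direction were 27.2%, 14.5% and 35.5% of all genes. In bulk tissue, a change in the number of red cell precursors and a change in RNA per precursor cannot be told apart. CPM below are normalised to effective library size by TMM, and log2 fold changes carry their SE.

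**Figure D2:**
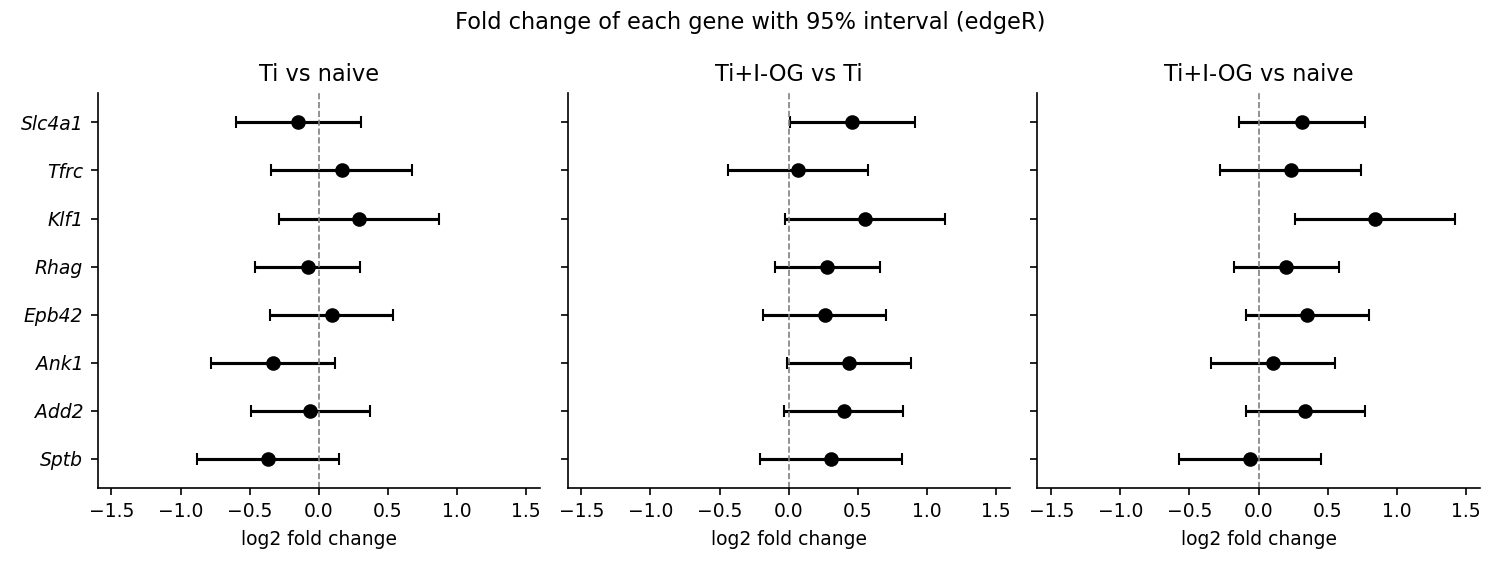
Log2 fold change (edgeR) of each gene with its 95% interval in the 3 comparisons; the dashed line marks no difference. The intervals span 0 for all 8 genes in Ti against naive, for all but Slc4a1 in Ti+I-OG against Ti and for all but Klf1 in Ti+I-OG against naive, before adjustment for the 14211 genes tested.

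Klf1, the erythroid regulator, had the largest fold change of the 8 in Ti+I-OG against naive. It was at 94.5, 160.0 and 79.3 CPM in naive replicates 1 to 3, at 106, 119 and 183 CPM in Ti and at 168, 218 and 214 CPM in Ti+I-OG. All 3 Ti+I-OG libraries were above all 3 naive ones, whereas Ti replicate 3 lay between the Ti+I-OG libraries and Ti overlapped both other groups. The group means were 111 ± 42.9, 136 ± 41.3 and 199.6 ± 27.65 CPM (SD, n = 3 each). The log2 fold change of Ti+I-OG against naive was 0.84 (SE 0.266, 95% interval 0.26 to 1.42, adjusted p = 0.0663 by edgeR), a 1.79-fold difference that did not pass. It passed with DESeq2 (adjusted p = 0.0214), with the replicate number as a block (0.0236), without naive replicate 2 (0.0148, log2 fold change 1.20) and without Ti replicate 3 (0.0475). In these settings 17.2%, 23.8%, 14.7% and 9.85% of all genes passed, in that order. Over the 19 alternatives the adjusted p ran from 0.0148 to 0.233 and all 19 fold changes were positive. Same-numbered naive and Ti+I-OG libraries deviated together (correlations of 0.197, 0.115 and 0.273 over genes), and with this block 23.8% of all genes passed against 8.26% without it. Against Ti the fold change was 0.55 (SE 0.264, adjusted p = 0.631), and Ti against naive gave 0.29 (SE 0.264, adjusted p = 0.501). Klf1 was the only gene of the 8 whose naive and Ti+I-OG libraries did not overlap, against 18.7% of all genes that were higher without overlap in that comparison.

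Slc4a1 encodes band 3, which exchanges chloride for bicarbonate and anchors the skeleton. It was at 1455, 2227 and 1499 CPM in naive, at 1498, 1283 and 1895 CPM in Ti and at 2078, 2006 and 2354 CPM in Ti+I-OG. The 3 Ti+I-OG libraries were above the 3 Ti libraries, and naive replicate 2 lay among the Ti+I-OG libraries. The log2 fold change of Ti+I-OG against Ti was 0.46 (SE 0.208, 95% interval 0.01 to 0.92, adjusted p = 0.630), and against naive it was 0.31 (SE 0.208, adjusted p = 0.330). Ti against naive gave −0.15 (SE 0.208, 95% interval −0.60 to 0.31), which was 0.08 without naive replicate 2.

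Rhag, whose product forms the Rh complex and conducts ammonia or carbon dioxide, and Add2, the β chain of adducin, had the same order of groups. Rhag was at 121, 196 and 133 CPM in naive, 140.5, 127 and 158 in Ti and 174, 168 and 175 CPM in Ti+I-OG. Add2 was at 96.0, 157 and 95.6 CPM in naive, 105, 97.3 and 132 in Ti and 150, 135 and 155 CPM in Ti+I-OG. In both genes the Ti+I-OG libraries lay above every Ti library and naive replicate 2 above every other library. The log2 fold change of Ti+I-OG against Ti was 0.28 for Rhag (SE 0.174, adjusted p = 0.685) and 0.40 for Add2 (SE 0.197, adjusted p = 0.647). With Slc4a1 these were 3 of 8 genes whose Ti+I-OG libraries were all above the Ti libraries, against 7.75% of all genes, and the 3 followed each other closely over libraries, so they do not count as 3 separate observations. Against naive the fold change of Add2 was 0.34 (SE 0.197, adjusted p = 0.267), and without naive replicate 2 it was 0.62 and passed (adjusted p = 0.0304). With that library, the highest for Add2, left out, 14.7% of all genes passed. In Ti against naive, Rhag was at −0.08 (SE 0.174) and Add2 at −0.06 (SE 0.196), and both were positive without naive replicate 2, at 0.16 and 0.22.

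Epb42, which encodes the transglutaminase-like protein 4.2 that binds band 3 and ankyrin, was at 139.7, 229 and 146 CPM in naive. It was at 194, 145 and 209 CPM in Ti and 205, 207 and 245 CPM in Ti+I-OG, so all groups overlapped. Its log2 fold changes were 0.09 for Ti against naive (SE 0.203), 0.26 for Ti+I-OG against Ti (SE 0.203, adjusted p = 0.748) and 0.35 for Ti+I-OG against naive (SE 0.203, adjusted p = 0.261). Without naive replicate 2 the last of these was 0.62 and passed (adjusted p = 0.0424). With that library, the highest naive one for Epb42, left out, 14.7% of all genes passed.

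Sptb and Ank1, which encode the large skeleton proteins β-spectrin and ankyrin, had the most negative fold changes of the 8 in Ti against naive on counts, without passing. On the log2(FPKM + 1) scale this held for Sptb (−0.44) and not for Ank1 (−0.06), where Slc4a1 was at −0.21, Rhag at −0.12 and Add2 at −0.08. Sptb was at 235, 361 and 316 CPM in naive, 229.7, 173 and 303 in Ti and 248.5, 252 and 371 CPM in Ti+I-OG. Ank1 was at 162, 253 and 208 CPM in naive, 153, 137 and 205 in Ti and 190.5, 208 and 271 CPM in Ti+I-OG. In both genes Ti replicate 2 was the lowest of all libraries and Ti+I-OG replicate 3 the highest, and the groups overlapped throughout. The log2 fold change of Ti against naive was −0.37 for Sptb (SE 0.235, 95% interval −0.88 to 0.14, adjusted p = 0.331) and −0.33 for Ank1 (SE 0.206, 95% interval −0.78 to 0.12, adjusted p = 0.321). With a library left out these ran from −0.60 (without Ti replicate 3) to −0.20 (without Ti replicate 2) for Sptb, and from −0.52 (without Ti replicate 3) to −0.17 (without naive replicate 2) for Ank1. Ti+I-OG against Ti gave 0.31 for Sptb (SE 0.235), which was 0.087 without Ti+I-OG replicate 3 and 0.53 without Ti replicate 3. For Ank1 it gave 0.44 (SE 0.206, adjusted p = 0.631), which was 0.27 without Ti+I-OG replicate 3. Ti+I-OG against naive gave −0.06 (SE 0.235) and 0.10 (SE 0.205). Exons of Sptb overlap those of Plekhg3 in GENCODE release M21, and the library kit does not mark strand, so reads there cannot be told apart. Plekhg3 had 442 to 1154 counts per library against 3673 to 7719 for Sptb.

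Tfrc, the iron intake receptor, was at 622, 987 and 582 CPM in naive, 935, 904 and 616 in Ti and 845, 998 and 731 CPM in Ti+I-OG. Its order of libraries was not that of the other 7 genes: Ti replicates 1 and 2, among the lowest in Sptb and Ank1, ranked 3 and 4 of 9 in Tfrc, and Ti replicate 3, the highest Ti library in the other 7, was the lowest Ti library in Tfrc. The log2 fold changes were 0.16 for Ti against naive (SE 0.233), 0.07 for Ti+I-OG against Ti (SE 0.233, 95% interval −0.44 to 0.58) and 0.23 for Ti+I-OG against naive (SE 0.233), and none passed. In Ti+I-OG against Ti the upper bounds of the 95% intervals of the 8 genes ran from 0.58 (Tfrc) to 1.13 (Klf1).

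Library by library, the deviations from the group means showed which genes moved together. Over the 21 pairs of genes without Tfrc, Pearson's r of these deviations was 0.58 to 0.97, with a median of 0.84, over 9 libraries that leave 6 residual degrees of freedom. The closest pairs included Ank1 with Sptb, Add2 with Slc4a1 and Add2 with Rhag, at 0.97 each. Tfrc stood apart, at −0.25 with Sptb to 0.41 with Rhag and a median of 0.21. These correlations describe libraries that differ in cell makeup, and no test was made of them. Naive replicate 2 was the highest or second highest library in 7 of 8 genes, Ti+I-OG replicate 3 was among the highest 3 in 7 of 8, and naive replicate 1 was among the lowest 3 in 8 of 8.

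**Figure D3:**
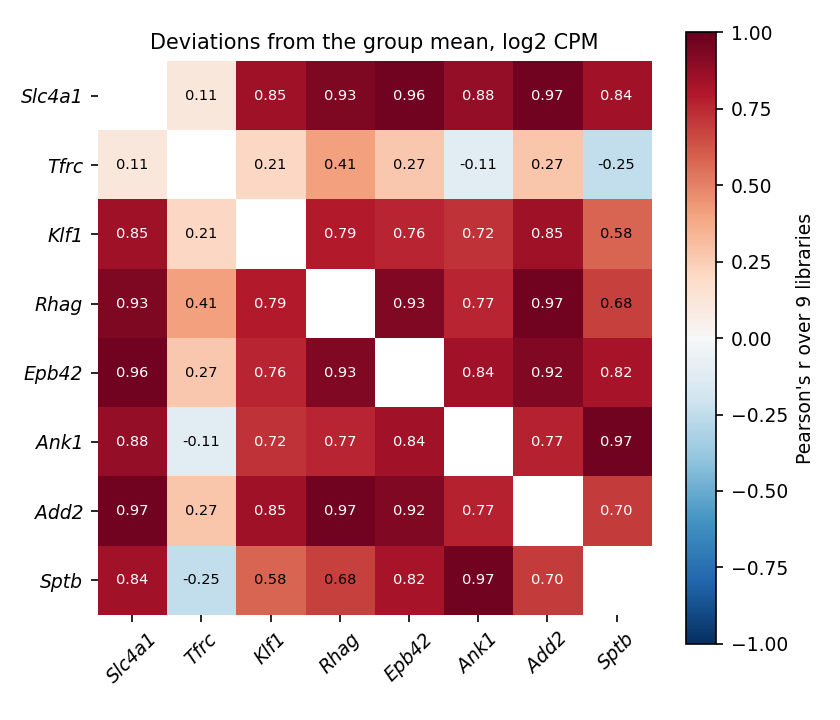
Pearson's r between genes of the deviation of log2 CPM from the group mean, over 9 libraries; red is positive and blue negative. The 7 genes other than Tfrc have r of 0.58 to 0.97 with each other, and the row of Tfrc holds −0.25 to 0.41.

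The spread within groups was as follows, with no test of a difference. Over the 8 genes the coefficient of variation was 20.9% to 38.6% in naive, 10.7% to 30.4% in Ti and 2.23% to 24.0% in Ti+I-OG. Rhag was the extreme, at 26.9% among naive libraries, 10.7% among Ti and 2.23% among Ti+I-OG libraries, where its 3 libraries held 168 to 175 CPM. Counting error was not separated from these spreads. In Sptb and Ank1 the Ti+I-OG libraries varied by 24.0% and 18.9%, close to the naive values of 20.9% and 21.9%.

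Genes with the most similar pattern to the mean of the 8 over 9 libraries, among 11984 genes with a mean of at least 1 FPKM, included other red cell genes. They were Slc43a1 (r = 0.99), Dmtn, the actin-bundling protein dematin of the red cell skeleton (0.99), Fam234b (0.98), Art4, which carries the Dombrock blood group (0.96), Fhdc1 (0.96), Tal1, the partner of GATA1 (0.96), Xpo7 (0.95) and Specc1 (0.95). Taken singly, Slc4a1 was closest to Fhdc1 and Ranbp10, Epb42 to Hemgn and Dmtn, Ank1 to Rnf123 and Brpf3, and Sptb to Apex2 and Wdr81. Add2 was closest to Slc43a1 and Fam234b, and Rhag to Slc43a1 and Xpo7 (r = 0.96 to 0.99 in all). The nearest to Tfrc were Ubxn2b (0.93) and H2-Eb2 (0.92), neither of them named for another of these genes. These values describe likeness over 9 libraries that differ in group and in marrow makeup.

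Other genes of the red cell membrane had mostly positive fold changes in Ti+I-OG against Ti, as the 8 did. Of 18 other membrane genes, which include glycophorin, protein 4.1, the Kell and Rh antigens and tropomodulin, 17 had a positive fold change in Ti+I-OG against Ti and none passed (5 at an unadjusted p under 0.05; no call by DESeq2, limma-voom or limma-trend). The median was 0.34, beside 0.35 for the 8 genes and −0.0031 for all genes tested. In 11 of the 18 the Ti+I-OG libraries were all above the Ti libraries, against 7.75% of all genes, as in Epb41, the spectrin-actin linker protein 4.1 (0.63, SE 0.191, adjusted p = 0.628), Tmod1, which caps the pointed ends of actin (0.45, SE 0.165), and Icam4, an adhesion antigen (0.67, SE 0.268). Against naive 15 of the 18 were positive and 3 negative, with a median of 0.36 (0.27 for the 8 genes, 0.03 for all genes), 10 were at an unadjusted p under 0.05 and Slc2a1 alone passed, in the negative direction. Ti+I-OG and naive libraries did not overlap in 7 genes that were higher and 1 that was lower in Ti+I-OG, against 18.7% and 16.9% of all genes. Slc2a1, a glucose transporter used by many tissues, fell, with 19.99 to 27.3 CPM in naive and 11.9 to 15.4 CPM in Ti+I-OG (log2 fold change −0.80, SE 0.163, adjusted p = 0.0236). DESeq2 called 6 of the 18 higher and 1 lower in that comparison, and limma-voom and limma-trend 1 lower. The shares of all genes called there in either direction were 17.2% by DESeq2, 6.57% by limma-voom and 12.6% by limma-trend. In Ti against naive 9 of the 18 were positive and 9 negative, with a median of −0.03, and none passed (1 at an unadjusted p under 0.05). DESeq2 called 1 lower there, against 13.1% of all genes in either direction, and limma-voom and limma-trend called 0.

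The other erythroid regulators gave a like count. Of 14 erythroid factors and receptors 13 had a positive fold change in Ti+I-OG against Ti (median 0.38) and 10 a negative one in Ti against naive (median −0.19). None passed in these or in Ti+I-OG against naive. At an unadjusted p under 0.05 there were 2 in Ti against naive, 2 in Ti+I-OG against Ti and 4 in Ti+I-OG against naive. The shares of all genes were 26.9%, 7.84% and 29.8%. DESeq2 called 2 of the 14 higher in Ti+I-OG against naive and none in the other comparisons, and limma-voom and limma-trend called none in any. Of all genes, DESeq2 called 17.2% in Ti+I-OG against naive. In Ti+I-OG against naive 8 of the 14 were positive and 6 negative, from −0.49 to 0.71 with a median of 0.15, and the 3 with the smallest p were all positive. Gata1, the master regulator that acts with Klf1, was at 52.2, 69.6 and 50.2 CPM in naive, 61.5, 49.2 and 83.0 in Ti and 73.6, 81.8 and 103 CPM in Ti+I-OG (log2 fold change against naive 0.59, SE 0.206, adjusted p = 0.0856). As in Klf1, every Ti+I-OG library of Gata1 was above every naive library. This held for 3 of the 14 regulators, against 18.7% of all genes. Gfi1b, a repressor of the same line, was at 0.71 (SE 0.245, adjusted p = 0.0846), and Lmo2, the bridging protein of the TAL1 complex, at 0.46 (SE 0.15, adjusted p = 0.0705).

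Globin and haem genes, the cargo of the same cells, had median log2 fold changes of 1.53 and 0.73 in Ti+I-OG against naive, beside 0.27 for the 8 genes. All 4 globin genes rose in Ti+I-OG against naive (log2 fold changes 1.42 to 1.58, adjusted p = 0.0326 to 0.0369), also with DESeq2 and limma-voom but with 0 of 4 by limma-trend on FPKM. Of 8 haem synthesis genes Alas2, Alad, Urod and Ppox rose and 4 did not pass (7 called by DESeq2, 4 by limma-voom and 2 by limma-trend). Of all genes, edgeR called 8.26% in that comparison, DESeq2 17.2%, limma-voom 6.57% and limma-trend 12.6%. Alas2, the first enzyme of erythroid haem synthesis, was at 2377, 2387 and 2481 CPM in Ti+I-OG and 1112, 1789 and 698.5 CPM in naive (log2 fold change 1.01, SE 0.271, adjusted p = 0.0453). The share of counts in globin was 15.1% to 15.9% in Ti+I-OG, against 2.95% to 9.47% in naive and 6.68% to 9.98% in Ti. Within libraries, Slc4a1 stood at 25.7, 24.4 and 55.5 counts per 1000 globin counts in naive replicates 1 to 3, at 22.6, 17.3 and 19.2 in those of Ti and at 12.6, 11.3 and 14.4 in those of Ti+I-OG. All 8 genes had a lower ratio to globin in every Ti+I-OG library than in any naive library. So did 86.6% of all genes, so the count says nothing particular to the 8. In Ti+I-OG against Ti it was 8 of 8 (86.2% of all genes) and in Ti against naive 5 of 8 (6.66%), and all 8 ratios share 1 denominator. The exact permutation test on each ratio gave p = 0.10, the smallest that 3 libraries against 3 allow, for all 8 genes in both comparisons of Ti+I-OG. In Ti against naive it gave 0.10 for 5 genes, 0.40 for Epb42, 0.50 for Klf1 and 0.60 for Tfrc by the same exact test. With 18 ratios computed in each of 3 comparisons, none could pass with or without adjustment.

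**Figure D4:**
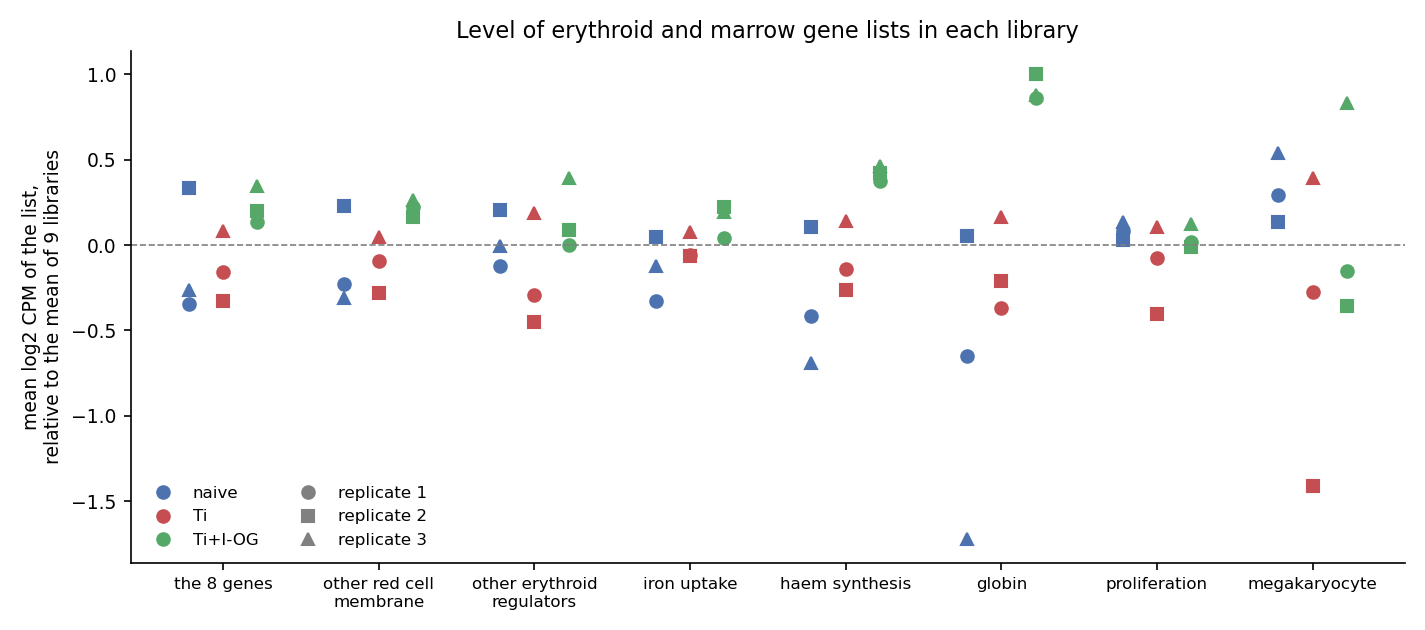
Level of 8 gene lists in each library, as the mean log2 CPM of the list's genes relative to each gene's mean over 9 libraries; colours give the group and symbols the replicate. The 8 genes span −0.35 to 0.35 with naive replicate 2 beside the Ti+I-OG libraries, whereas in globin the 3 Ti+I-OG libraries stand at 0.86 to 1.00, above all others (−1.72 to 0.16).

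Iron handling and cell division give the setting of Tfrc. Of 14 other iron genes Ftl1, the ferritin light chain, rose in Ti+I-OG against naive, with 1333 to 1901 CPM in naive and 2331 to 3170 CPM in Ti+I-OG (log2 fold change 0.72, SE 0.19, adjusted p = 0.0427), and 13 did not pass (DESeq2 called 3 higher, limma-voom 2 and limma-trend 0). Of all genes, DESeq2 called 17.2% in that comparison, limma-voom 6.57% and limma-trend 12.6%. Fth1, the ferritin heavy chain, was at 0.71 in it (SE 0.206, adjusted p = 0.0543). Tfr2, the second transferrin receptor, was at 0.71 in Ti+I-OG against Ti (SE 0.274, adjusted p = 0.628). In the other 2 comparisons none of the 14 passed (1 and 2 at an unadjusted p under 0.05; 0 by DESeq2, limma-voom and limma-trend). None of 10 proliferation genes passed in any comparison by edgeR, DESeq2, limma-voom or limma-trend (0, 1 and 1 at an unadjusted p under 0.05), with medians of −0.23, 0.17 and −0.02 in the order used above.

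Broadly expressed relatives of the 8 genes had mostly negative fold changes in Ti+I-OG. Of 17 tested paralogues (Add1 also stood in the membrane list), among them the spectrins Sptan1 and Sptbn1, the ankyrins Ank2 and Ank3, adducins Add1 and Add3 and the factors Klf2, Klf3, Klf4 and Klf6, 13 had a negative fold change in Ti+I-OG against Ti (median −0.10), and none passed in any comparison by edgeR (4, 2 and 4 at an unadjusted p under 0.05). Of all 14211 genes tested, 7165 were negative in Ti+I-OG against Ti. In Ti+I-OG against naive 11 of the 17 were negative, from −0.92 to 1 with a median of −0.30, and 6716 of all genes were negative. Among the 17, DESeq2 called 2 higher in Ti against naive and 3 lower in Ti+I-OG against naive, limma-trend 3 lower in the latter and limma-voom none. Of all genes, DESeq2 called 13.1% and 17.2% in these comparisons, and limma-trend 12.6% in the latter. Sptbn1, the general β-spectrin, was at −0.46 in Ti+I-OG against naive (SE 0.148, adjusted p = 0.0703) where Sptb was at −0.06, and Sptan1 was at −0.51 (SE 0.163, adjusted p = 0.0693). A difference between the lists was not tested.

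Markers of other cells are described next, and no correlation of them with the 8 genes was computed. The 8 megakaryocyte markers are of a line that shares Gata1, Tal1 and Gfi1b with red cells. Their mean log2 level was −1.41 in Ti replicate 2, the lowest library for Sptb and Ank1, against −0.28 and 0.39 in the other Ti libraries. It was 0.83 in Ti+I-OG replicate 3, the highest for both genes. Naive replicate 2, the highest naive library for both, was the lowest naive library in these markers (0.13 against 0.29 and 0.54). All 10 skeletal muscle markers had positive fold changes in Ti against naive, of which Mylpf passed (1.75, adjusted p = 0.0389). In Ti+I-OG against naive all 10 were again positive and Mb, Mylpf and Myh7 passed, and Myh7, the slow muscle myosin, alone passed in Ti+I-OG against Ti (4.21, adjusted p = 0.00387). The share of counts in the muscle list was 0.220% to 0.748% in Ti, 0.0977% to 0.282% in naive and 0.299% to 0.503% in Ti+I-OG. Of 10 macrophage markers Cd68 rose in Ti (0.58, adjusted p = 0.0207) and in Ti+I-OG (0.52, adjusted p = 0.0296) against naive, and in Ti against naive Cd163, which marks the macrophages that clear haemoglobin, fell (−0.81, adjusted p = 0.043). Of 10 neutrophil markers Cxcr2 fell in Ti (−0.54, adjusted p = 0.0447) and in Ti+I-OG (−0.96, adjusted p = 0.00732) against naive. The 10 B lineage markers were all positive in both comparisons with naive and none passed (5 and 4 at an unadjusted p under 0.05). DESeq2 called 0 and 1 of them, against 13.1% and 17.2% of all genes, and limma-voom and limma-trend called 0. Naive replicate 3 was lowest in these markers, at a mean log2 level of −1.40. Of 10 bone cell markers 8 rose in Ti against naive and 4 in Ti+I-OG against naive. What part any of these cell types had in the levels of the 8 genes was not tested.

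Ank1 is made in a long red cell form and in short muscle forms, and count and FPKM can be set against each other for such genes. A gene's count divided by its FPKM and the library's total gives the transcript length that the deposited values imply in that library. For Slc4a1 it was 4545 bases in all 9 libraries, and for Sptb, Rhag, Klf1 and Epb42 the longest was at most 1.03 times the shortest. For Ank1, with 13 coding transcripts of 328 to 8218 bases in GENCODE release M21, it was 6112, 5651 and 5689 bases in naive, 4289, 4024 and 5577 bases in Ti and 4976, 5184 and 5162 bases in Ti+I-OG. The ratio of longest to shortest, 1.52, was at the 96.5th percentile of the 9823 genes with at least 100 counts in every library. Every naive library was above every other library, by an exact permutation test p = 0.10 for Ti against naive and for Ti+I-OG against naive, the smallest that 3 against 3 can give. How many of all genes had lengths without overlap was not computed. The Ank1 length was lowest in Ti replicates 1 and 2. By the mean log2 level of 10 skeletal muscle genes the libraries fell into 2 sets. The 3 naive libraries and Ti replicate 3, at −1.93 to −0.46, had Ank1 lengths of 5577 to 6112 bases, and the other 5, at 0.38 to 1.03, had 4024 to 5184 bases. Across the 9 libraries the Ank1 length ran against this muscle level (Pearson's r = −0.79, exact permutation p = 0.0106; Spearman's rho = −0.80, exact permutation p = 0.0138). Without the 2 libraries farthest from the median muscle level, naive replicate 1 and Ti replicate 3, r was −0.67, and for deviations from the group means it was −0.80. This was the 1 relation of its kind computed, chosen after the values were seen, and a pooled r spans the 2 sets, each of them too small for an r of its own. The permutations also mixed libraries of different groups. Ti replicate 1 and Ti+I-OG replicate 1 had a like muscle level (0.38 each) and lengths of 4289 and 4976 bases. Ti+I-OG replicate 2, at a muscle level of 0.95, had 5184 bases. Whether muscle RNA altered the Ank1 length was not tested. Reads of Ank1 in exons it shares with Gm15816, and of Add2 with Gm44089, cannot be told apart from theirs either. On the FPKM scale, which uses these lengths, Ank1 was at 28.2, 46.4 and 40.0 FPKM in naive and 36.1, 34.3 and 37.2 FPKM in Ti. Its log2 fold change of Ti against naive was then −0.06 on the log2(FPKM + 1) scale against −0.33 on counts, and that of Ti+I-OG against Ti was 0.16 against 0.44.

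**Figure D5:**
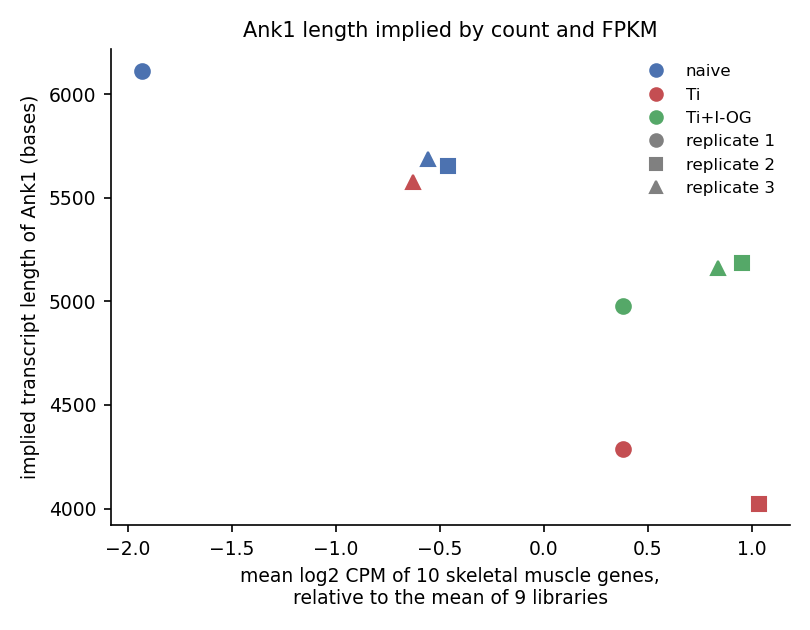
Transcript length of Ank1 implied by the deposited count and FPKM (bases, axis not from 0) against the mean log2 CPM of 10 skeletal muscle genes, 1 point per library; colours give the group and symbols the replicate. Naive replicate 1 has the longest Ank1 (6112 bases) and the least muscle RNA, and Ti replicate 2 the shortest (4024 bases) and the most.

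Tfrc also had library-specific lengths, of 4429 bases in naive replicate 2 and 3753 bases in Ti+I-OG replicate 3, against 4843 to 4886 bases in the other 7 libraries. Its FPKM in Ti+I-OG replicate 3, 190.2, ranked 3 of 9 where its CPM ranked 6. Epb41, the protein 4.1 gene known for stage-specific splicing in red cell precursors, was named after its values were seen. Its implied length was 4773 to 4851 bases in naive, 4267 to 4381 bases in Ti and 4173 to 4473 bases in Ti+I-OG. Naive did not overlap either other group (exact permutation p = 0.10 each, the smallest possible). The ratio of longest to shortest was at percentile 77.8 for Epb41 and 90.2 for Tfrc, among the genes ranked for Ank1. The share of all genes whose lengths separate the groups was not computed, so how unusual the Epb41 separation is cannot be said. Whether splicing differed was not tested.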

How the data were processed

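Libraries were made from oligo(dT)-selected tibial RNA with a NEBNext Ultra kit, per the labels' protocols. The authors deposited estimated counts and FPKM for 22183 genes in 9 libraries. RSEM, edgeR, DESeq2, fastp and StringTie 1.3.1 stand in the submitters' processing notes, with no role. The sources used here do not give aligner, build or annotation. Estimated counts (8.49% of values not whole) were rounded. Genes kept by filterByExpr were fitted in edgeR 4.0.16 (R 4.3.3) with TMM and a quasi-likelihood F test, 1 mean per group and 6 residual degrees of freedom; p-values are two-sided and Benjamini-Hochberg adjusted over 14211 genes, threshold 0.05. The steps were run on simulated counts with the same spread for every gene and changes larger than any of the 8 genes had in the main fit. That run does not show whether changes as small as theirs would be detected. Alternatives used DESeq2 1.42.0, limma 3.58.1 (voom; trend on log2(FPKM + 1) or + 0.1), other scalings and filters, a replicate block and libraries left out. Groups and numbers came from the titles. Deviations of same-numbered libraries correlated at −0.02 to 0.33 over the 9 pairs, above 0.1 in every pair only for Ti+I-OG with naive. No library was a copy of another (chi-square per degree of freedom 12.9 to 132 within groups). Members and lists were chosen with earlier results of these data known. All 8 members are named. Of other lists the called genes (where 5 or fewer) and up to 3 with the smallest p per comparison could be named. Likeness was ranked by Pearson's r of log2 CPM over 9 libraries, among genes with a mean of at least 1 FPKM, taking 8 genes for the members' mean and 2 per member. Some genes that this naming would give are not reported here.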

Additional observations from a re-analysis of the deposited data

How the results depend on the processing

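In Ti against naive and in Ti+I-OG against Ti none of the 8 genes passed in any of the 19 alternatives. In Ti+I-OG against naive 1 passed with DESeq2 and 1 with the replicate block (Klf1), 0 to 3 with a library left out (3 without naive replicate 2: Klf1, Add2 and Epb42; 1 without Ti replicate 3) and 0 in the others. Of all genes in that comparison, 17.2% passed with DESeq2, 23.8% with the replicate block, 14.7% without naive replicate 2 and 9.85% without Ti replicate 3. In the test over the 3 groups none of the 8 passed, against 1 with DESeq2, 1 with the replicate block and 0 to 1 with a library left out. All genes called numbered 914, 6, 1174 and 820 (Ti against naive, Ti+I-OG against Ti, Ti+I-OG against naive, over the 3 groups). They were 1859, 16, 2440 and 2466 with DESeq2, and 2953, 3438 and 3285 with the replicate block in all but the Ti+I-OG against Ti comparison. The counts against naive were 556 (Ti) and 1787 (Ti+I-OG) by limma-trend on log2(FPKM + 1), 544 and 1853 with a pseudocount of 0.1, and 357 and 770 with only the 2 groups fitted. With a library left out they ran from 100 to 1999, 0 to 6, 59 to 2119 and 139 to 1729. The lowest came without Ti replicate 1, or without Ti+I-OG replicate 2 in Ti+I-OG against naive, and the highest in the comparisons with naive and over the 3 groups without Ti replicate 3 or naive replicate 2.

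Signs that turned belonged to fold changes near 0. With upper quartile scaling Add2 was at 0.015 in Ti against naive and Sptb at 0.023 in Ti+I-OG against naive; that scaling put the median of all genes at 0.12 in the latter. With a library left out the fold changes in Ti against naive ran from −0.31 to 0.076 (Slc4a1), −0.035 to 0.35 (Epb42), −0.21 to 0.22 (Add2) and −0.21 to 0.16 (Rhag). Those of Tfrc in Ti+I-OG against Ti ran from −0.10 to 0.17, and in Ti+I-OG against naive Ank1 ran from −0.070 to 0.27 and Sptb from −0.29 to 0.076. The cause of these changes was not tested.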
